A study of Homo sapiens with 3 samples.

Results

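The EGF-family ligands are the secreted growth factors that bind the EGF receptor: amphiregulin (AREG), epiregulin (EREG), transforming growth factor alpha (TGFA), heparin-binding EGF-like growth factor (HBEGF), betacellulin (BTC), epidermal growth factor (EGF) and epigen (EPGN). All 7 of them had a probe on the arrays, 7 of 43317 gene names in all, and every non-control probe carrying one of these names was taken, which gave 9 probes. The arrays measured RNA of HCT116 cells, a human colorectal cancer line, grown in McCoy's 5A medium with serum and transfected with small interfering RNA (siRNA). There was 1 array each of SMARCA4-KD1 (below, KD1), SMARCA4-KD2 (KD2) and NC cells, and the 3 groups share the line, the medium and the transfection procedure. SMARCA4 (Brg1) is an ATPase of the SWI/SNF complex, which moves nucleosomes, and the study asked how its loss changes gene expression, with EGF receptor signaling as a main interest. The treatment field of the sample records names PRMT1 where the titles and the siRNA protocol name SMARCA4, the labels do not spell out NC, and neither gives the time after transfection. The protocol names 2 siRNAs against SMARCA4 without saying which array received which. The study describes its NC cells as transfected with a scrambled negative control.

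The ligands are made as precursors anchored in the cell membrane, and metalloproteases such as ADAM17 cut the growth factor free at the cell surface. AREG, TGFA, EGF and EPGN bind the EGF receptor (EGFR), while EREG, HBEGF and BTC also bind ERBB4. A bound receptor pairs with another receptor of the ERBB family and signals through RAS, RAF, MEK and ERK, and ERK in turn switches on immediate-early genes and some of the ligands themselves. In colorectal tumors AREG and EREG are best known as genes whose expression has been studied as a marker of response to antibodies against EGFR.

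SMARCA4 itself was read first as a check of the labels. Its probe had an intensity of 3960 in KD1, 4129 in KD2 and 14026 in NC, so both arrays labelled as knockdowns held less SMARCA4 RNA, 3.76-fold and 3.47-fold less. PRMT1, the gene in the treatment field, had 9801, 10147 and 7683, which is 1.20-fold and 1.29-fold higher than in NC. Between 26619 and 27536 of 58201 probes per array were well above background by the scanner software's flag, no spot was saturated, and the 75th percentile of the intensities lay between 223 and 237. Of 10 markers of colon epithelium 8 were kept, KRT8, KRT18, KRT19, EPCAM and CDH1 among them, while VIL1 and LGALS4 were not well above background on any array. Of 10 markers of immune, endothelial, stromal and liver cells 5 were kept, and 0 of these passed 1.5-fold the same way in KD1 and KD2. Over all genes kept 6.35% were higher and 8.05% lower in both, so 0 of 5 says little. KD1 and KD2 shared their recorded slide barcode and scan date (numbered slide 1), while NC differed in at least 1 of these (slide 2). The slide or scan date and the knockdown thus cannot be told apart.

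Of the 9 probes, 2 are printed. They lie in coding sequence and are shown because each gene was also read by another probe, which gave a similar fold for AREG and a different one for TGFA. The letters are those of the array files, in the direction of the transcript.
AREG, hg19 chr4:75318293-75318352, plus strand: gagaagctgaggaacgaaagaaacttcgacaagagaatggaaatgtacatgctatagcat
TGFA, hg19 chr2:70683472-70683531, minus strand: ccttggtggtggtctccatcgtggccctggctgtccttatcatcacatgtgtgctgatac

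In the values below an intensity is the scanner software's processed signal, given with that software's own error for the spot, and a log2 difference is a knockdown minus NC after the 75th percentile of each array was subtracted. No group had a second array, so there was no replicate check and no test, and errors cover the spot alone. Gene-level statements use the brightest probe among those well above background on at least 1 array, and "higher" or "lower" means at least 1.5-fold, or 0.58 on the log2 scale, which is the fold threshold of the study's methods. Both knockdowns were set against the same NC array, so a deviation of that array moves both differences together. The RNA came from whole cultures, in which fewer expressing cells and less RNA per cell cannot be told apart.

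Of the 7 ligands, AREG alone was at least 1.5-fold higher in both knockdowns and BTC alone was at least 1.5-fold lower in both. EREG was higher in KD1 and stayed under the threshold in KD2. TGFA and HBEGF differed from NC by at most 0.10 on the log2 scale by their brightest probes. EGF and EPGN were not well above background on any array, so 5 of the 7 ligands were kept. The background for these counts is wide. Both knockdowns had 6.35% of the 22620 genes kept above the threshold and 8.05% below it, and 1 of 5 ligands in each direction can be read only against those shares. In KD1 alone 2 ligands were higher and 1 was lower, where 11.2% and 12.3% of all genes were. In KD2 alone 1 was higher and 1 was lower, where 10.1% and 9.77% of all genes were. The median log2 difference of the 5 ligands was 0.10 in KD1 and 0.08 in KD2, beside -0.004 and 0.02 over all genes kept. The single ligands ran from -0.62 to 1.09 in KD1 and from -0.95 to 1.16 in KD2.

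**Figure D1:**
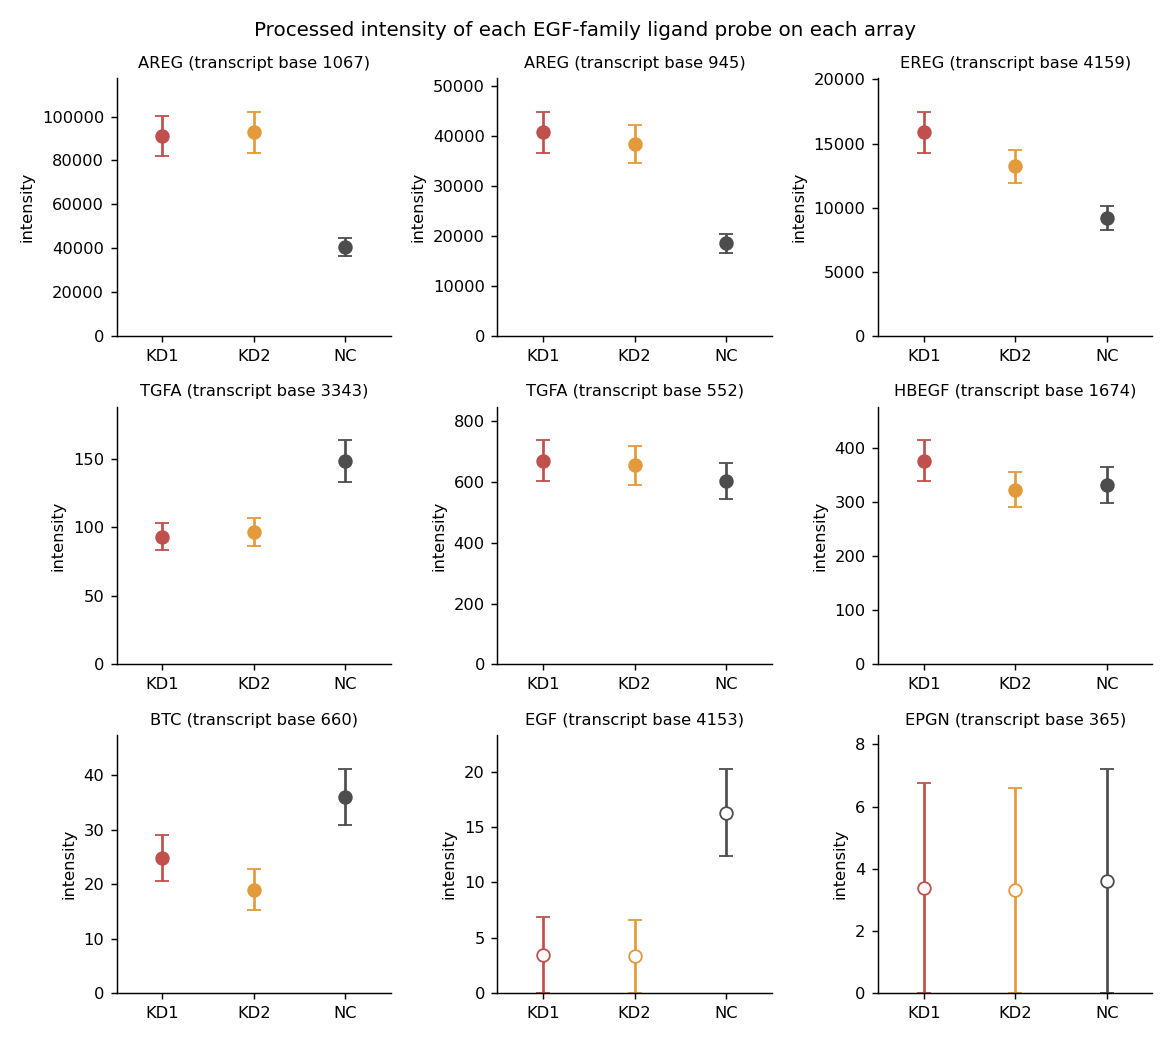
Processed intensity (vertical axis, linear, from 0, own range in each panel) of the 9 probes of the EGF-family ligands on the KD1, KD2 and NC arrays, with the scanner software's error as bars and open circles where the spot was not well above background. Both AREG panels show the knockdown arrays far above NC, the BTC panel and the TGFA panel at transcript base 3343 show them below NC, and the EGF and EPGN panels hold open circles only.

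AREG, a ligand of EGFR that is also a target of ERK signaling, was read by 2 probes. The brighter probe, at hg19 chr4:75320518-75320577 in the 3′ untranslated part of the transcript, had an intensity of 91145 ± 9114 in KD1, 92802 ± 9280 in KD2 and 40475 ± 4048 in NC. The coding probe printed above had 40713 ± 4071, 38343 ± 3834 and 18506 ± 1851. On both probes the knockdown arrays lay close to each other and about as far above NC. The fold over NC was 2.12 in KD1 and 2.24 in KD2 by the brighter probe (log2 difference 1.09 ± 0.20 and 1.16 ± 0.20), and 2.07 and 2.03 by the coding probe. The probes start 122 bases apart on the transcript and 2165 bases of genome lie between them, so an intron separates them. AREG ranked 258 of 22620 genes by the smaller of its 2 log2 differences, with 1.14% of genes above it. The hg19 build held a near-identical copy of the gene, AREGB, whose RNA these probes could not tell from that of AREG.

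TGFA, the EGFR ligand made by many epithelia, was read differently by its 2 probes. The coding probe printed above, which starts at transcript base 552, had an intensity of 670 ± 67.1 in KD1, 655 ± 65.5 in KD2 and 604 ± 60.5 in NC. The log2 difference was 0.06 ± 0.20 in KD1 and 0.08 ± 0.20 in KD2, inside the error of the spots. The dimmer probe, at base 3343 in the 3′ untranslated part (hg19 chr2:70675319-70675378), had 93.0 ± 9.93, 96.6 ± 10.2 and 148 ± 15.2. By that probe TGFA was 1.69-fold and 1.56-fold lower than in NC, with log2 differences of -0.75 ± 0.21 and -0.65 ± 0.21. With normexp background correction they were -0.48 and -0.44, under the 1.5-fold line. That correction adds an offset of 50, which is large beside the intensities of this probe and by itself shrinks its differences. The brighter probe stands for the gene by the rule used, and the direction for TGFA as a whole is uncertain. Whether the 2 probes read different transcripts was not tested.

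EGF, the founding ligand of the family, and EPGN, its most recently described member, gave no usable level. The EGF probe (hg19 chr4:110932689-110932748) had an intensity of 3.44 in KD1, 3.30 in KD2 and 16.3 ± 3.95 in NC, and the flag was 0 on all 3 arrays. The EPGN probe (hg19 chr4:75178782-75178841) had 3.37, 3.30 and 3.60, with errors as large as the values. No fold is given for either gene.

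EREG, which binds EGFR and ERBB4, had an intensity of 15871 ± 1587 in KD1, 13213 ± 1321 in KD2 and 9213 ± 921 in NC. Both knockdown arrays lay above NC, with KD1 the higher of them. The fold over NC was 1.62 and 1.40, a log2 difference of 0.70 ± 0.20 and 0.49 ± 0.20. Its single probe lies at hg19 chr4:75254009-75254068, at base 4159 of the transcript. Under quantile normalization the difference in KD1 was 0.56, which is under the 1.5-fold line.

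HBEGF, a heparin-binding ligand induced early after growth factor stimulation, had an intensity of 376 ± 37.8 in KD1, 323 ± 32.5 in KD2 and 332 ± 33.4 in NC. The NC array lay between the knockdown arrays, and all 3 values overlapped within their errors. The log2 differences were 0.10 ± 0.21 and -0.07 ± 0.21. Its probe lies at hg19 chr5:139713052-139713111.

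BTC, first described in pancreatic beta cell tumors, was dim. Its intensity was 24.8 ± 4.24 in KD1, 19.0 ± 3.81 in KD2 and 36.0 ± 5.16 in NC, and the spot was flagged well above background on all 3 arrays. Both knockdown arrays lay below NC, by 1.54-fold and 1.93-fold, or log2 differences of -0.62 ± 0.32 and -0.95 ± 0.36. The raw spot means before background correction were 60.3, 52.4 and 72.8, over a local background of 21, 20 and 22. With normexp, a model-based background correction run here with an added offset of 50, the differences were -0.08 and -0.19, and BTC was no longer lower. Its probe lies at hg19 chr4:75675838-75675897.

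The knockdown arrays were also compared with each other, which does not involve NC. The log2 difference of KD1 minus KD2 was -0.08 for AREG, 0.21 for EREG, -0.02 for TGFA, 0.17 for HBEGF and 0.33 for BTC. The spread of the same difference over other genes of like brightness (within 0.5 on the log2 scale and well above background on all arrays) gives a scale for these values. Its SD was 0.14 over 213 genes for AREG, 0.16 over 805 genes for EREG, 0.20 over 2273 genes for TGFA, 0.21 over 2127 genes for HBEGF and 0.38 over 1710 genes for BTC. The difference of EREG was thus somewhat larger than 1 SD, and those of the other 4 ligands were smaller. Against NC, genes as bright as AREG had a median log2 difference of 0.06 in KD1 and 0.12 in KD2, with an SD of 0.30 and 0.27. These spreads are over genes on the same arrays and say nothing of how a second culture would vary.

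**Figure D2:**
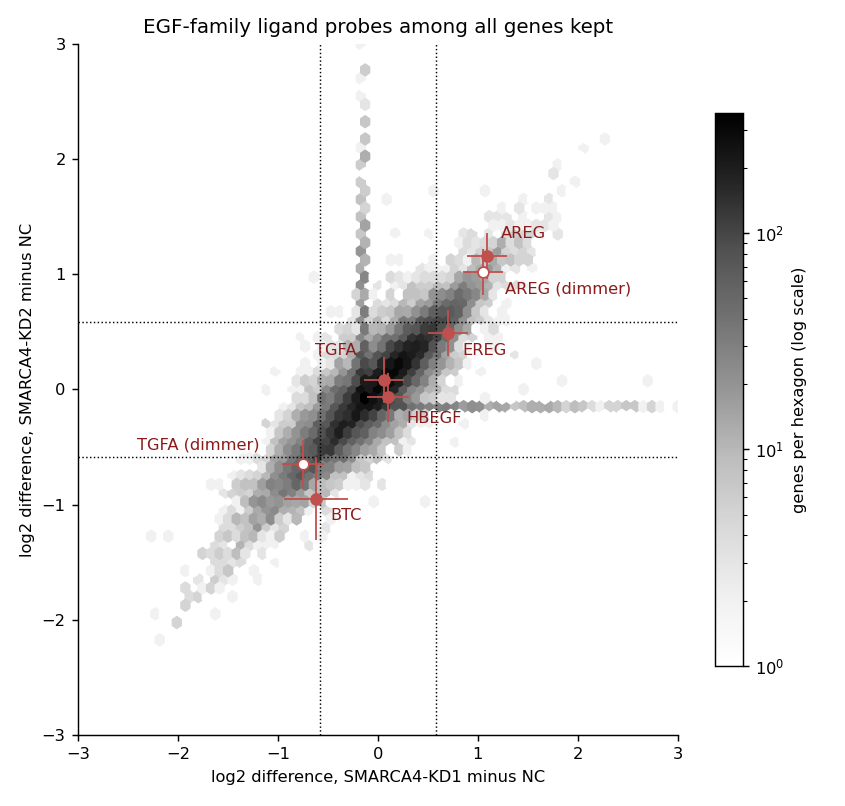
Log2 difference from NC in KD1 (horizontal) and KD2 (vertical) of all 22620 genes kept, as grey hexagons on a log color scale, with the ligand probes in red (filled, the brightest probe of the gene; open, the dimmer probe) and the scanner software's error as bars. Dotted lines mark 1.5-fold, both AREG probes lie beyond them at the upper right, BTC and the dimmer TGFA probe at the lower left, and the straight grey lines at -0.15 are genes that were not well above background on NC and 1 knockdown array.

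For each ligand kept, the 3 other genes well above background on all arrays with the most similar pair of log2 differences were found among 19496 genes. The measure is the straight-line distance between the pairs, and with so many genes a close match is easy to find. For AREG they were THC2526086, ZNF503-AS1 and FJX1, at distances of 0.009, 0.011 and 0.014. For EREG they were ZNF696, EEPD1 and SNHG3, and for TGFA MSI1, TSEN34 and PRC1-AS1. For HBEGF they were SCARNA4, LINC00626 and lnc-C9orf53-1. BTC had the most distant matches, FLJ46875 at 0.010, ENST00000563904 at 0.034 and PTPN6 at 0.044.

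AREG, EREG, EPGN and BTC lie close together on chromosome 4, so the genes within 1 Mb of the brighter AREG probe were read as well. Besides the ligands there were 39 genes with a probe in this window, of which 15 were kept. None of those 15 passed 1.5-fold the same way in KD1 and KD2 (0 higher, 0 lower), which is little different from the 6.35% and 8.05% of all genes for so few. Their median log2 difference was 0.09 in KD1 and 0.15 in KD2. It includes LOC541467 and ENST00000514414, which were well above background in KD2 only and were read against the lowest detected level of NC. The EREG probe lies 66.5 kb before the AREG probe and the BTC probe 355.3 kb after it. MTHFD2L, a mitochondrial folate enzyme gene 152.3 kb before it, had log2 differences of 0.09 and 0.05.

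The window also holds a cluster of chemokine genes, whose products attract neutrophils. CXCL1 had an intensity of 1223 in KD1, 1047 in KD2 and 748 in NC, and log2 differences of 0.62 and 0.45. CXCL5 had 311, 337 and 203, with differences of 0.53 and 0.70. Each passed 1.5-fold in 1 knockdown and not in the other. The differences were 0.50 and 0.27 for CXCL3, 0.30 and -0.12 for CXCL2 and 0.18 and 0.15 for CXCL8. CXCL1, CXCL2 and CXCL3 are close in sequence, and their probes may share signal. The long noncoding RNA lnc-BTC-5, 97.9 kb beyond the AREG probe, had differences of -0.68 and -0.54, and ENST00000567197, at 686.7 kb, had -0.67 and -0.47. ENST00000563602 had -0.49 and -0.55, RASSF6 had -0.39 and -0.15, and lnc-CXCL2-1 had 0.20 and 0.36. PARM1 had -0.02 and 0.32 and LOC100506253 had 0.26 and 0.46. LOC541467 and ENST00000514414 were well above background in KD2 only, so no difference is given for KD1, and neither was more than 1.5-fold over the lowest detected level of NC in KD2. The intensities of LOC541467 were close to each other, 17.1 in KD1, 17.6 in KD2 and 17.3 in NC.

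**Figure D3:**
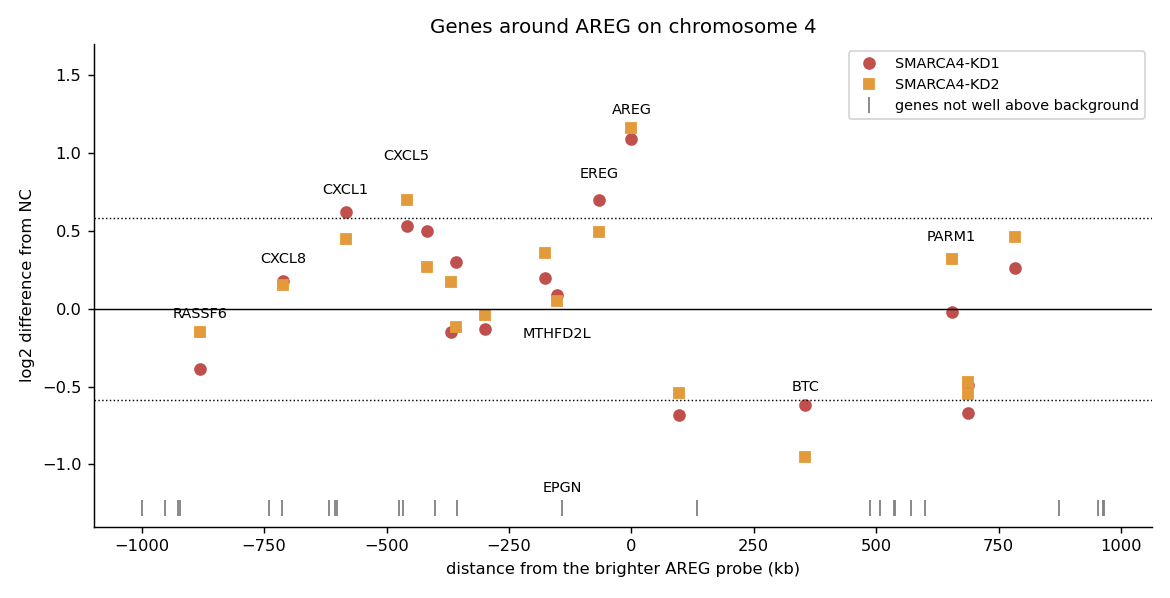
Log2 difference from NC (vertical axis) of the genes kept within 1 Mb of the brighter AREG probe, against their distance from it in kb (horizontal axis), for KD1 (circles) and KD2 (squares), with grey ticks for genes not well above background on any array. For the 2 genes detected in KD2 only, the circles lie at or just above the lowest detected level. AREG is the only gene in the window above the upper 1.5-fold line in both knockdowns and BTC the only gene below the lower line in both.

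The sequences before the start sites of AREG and EREG are shown because these neighbouring genes had the largest positive differences among the ligands. Both are the 250 bases before the RefSeq start, from the GRCh38.p14 build. Capitals mark every match to 5 motifs searched on both strands. The AP-1 motif was TGACTCA. The cAMP response element (CRE) was TGACGTCA. The TATA box was read as TATAAA. The GC box was read as GGGCGG. The E box was read as CACGTG. Overlapping matches were allowed, and none of the motifs contains another.
AREG, GRCh38.p14 chr4:74444886-74445135, plus strand: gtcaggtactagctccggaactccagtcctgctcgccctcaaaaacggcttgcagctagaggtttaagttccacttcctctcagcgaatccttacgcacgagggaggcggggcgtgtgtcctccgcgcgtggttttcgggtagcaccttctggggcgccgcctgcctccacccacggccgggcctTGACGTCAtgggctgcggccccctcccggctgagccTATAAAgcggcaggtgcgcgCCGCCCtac
EREG, GRCh38.p14 chr4:74364895-74365144, plus strand: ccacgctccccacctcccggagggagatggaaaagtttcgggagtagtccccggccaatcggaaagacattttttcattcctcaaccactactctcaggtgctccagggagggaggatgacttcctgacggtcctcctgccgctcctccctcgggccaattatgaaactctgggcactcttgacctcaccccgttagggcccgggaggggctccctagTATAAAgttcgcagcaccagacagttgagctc

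The AREG sequence held TGACGTCA from 65 to 58 bases before the start, TATAAA from 29 to 24 bases before it and 1 GC box on the opposite strand. The EREG sequence held TATAAA from 32 to 27 bases before the start and none of the other 4 motifs. The RefSeq entries held 35116 promoters. The CRE was in 1.65% of them, the TATA box in 10.72%, the GC box in 42.6%, the AP-1 motif in 4.20% and the E box in 6.34%. All 7 ligands had an entry and TGFA had 2 starts. AREG, EREG and EPGN held TATAAA, AREG was the only ligand with TGACGTCA, and EGF was the only one with the AP-1 motif. HBEGF held 5 GC boxes, the 2 starts of TGFA held 3 and 0, and BTC held none of the 5 motifs. The GC content of these 250 bases was 65.2% for AREG, 58.0% for EREG, 76.4% for HBEGF, 62.0% for BTC, 48.8% for EGF and 38.0% for EPGN, beside a median of 58.0% over all promoters. A match is a description of the letters and not evidence of a bound factor.

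The neuregulins are the EGF-like ligands of ERBB3 and ERBB4. Of the 4, NRG3 was not well above background, and 0 of the other 3 were higher or lower in both knockdowns. Over all genes 6.35% were higher and 8.05% lower in both, so 0 of 3 says little. The log2 differences were -0.22 and -0.29 for NRG1, -0.49 and -0.51 for NRG2 and 0.07 and 0.47 for NRG4.

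Among the 4 receptors 0 were higher in both knockdowns and 1 was lower, where 6.35% and 8.05% of all genes were. The lower gene, ERBB4, was kept only through the NC array, where it is high, so nothing is read from these counts. EGFR, the receptor of all 7 ligands, had an intensity of 865 in KD1, 817 in KD2 and 1087 in NC, and log2 differences of -0.41 ± 0.20 and -0.44 ± 0.20, under the 1.5-fold line. Its 2 dimmer probes had -0.11 and -0.26, and 0.22 and -0.19. The study itself lists EGFR as at least 1.5-fold lower in both knockdowns, and it reports less EGFR RNA and protein by other assays. Why the array values differ from the study's was not tested. ERBB2, the receptor without a ligand of its own, had -0.18 and -0.06, while its dimmer probe had 0.37 and 0.49. ERBB3, which signals only in pairs, had 0.25 and 0.11, and its dimmer kept probe had 0.04 and 0.08. ERBB4 had an intensity of 8.93, 13.6 and 25.0 and was well above background on the NC array only. It was thus at least 1.57-fold lower in KD1 and at least 1.58-fold lower in KD2. The spot errors were wide, 0.65 and 0.47 on the log2 scale. They belong to the measured intensities and not to these limits, so the errors and limits are not compared.

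The genes that free the ligands from the membrane were mostly near NC. Of 13 genes for shedding 12 were kept, 1 was higher in both knockdowns and 0 were lower, near the 6.35% and 8.05% of all genes. The gene that passed was ADAM15, a metalloprotease, with an intensity of 26932 in KD1, 26190 in KD2 and 16070 in NC, 1.58-fold and 1.59-fold over NC. Its dimmer probe had log2 differences of 0.60 and 0.43. ADAM17, the main sheddase of AREG and TGFA, had an intensity of 2516, 2228 and 1564 and was 1.52-fold and 1.39-fold over NC, so it passed in KD1 only. The list's median was 0.08 in KD1 and 0.18 in KD2. Of 6 genes for export and trafficking of the precursors none passed in both knockdowns (0 higher, 0 lower), with medians of 0.32 and 0.22. Beside the same 6.35% and 8.05% of all genes, 0 of 6 says little. NKD2, which escorts TGFA to the cell surface, came near the line with 1.46-fold and 1.49-fold, and SORT1, a sorting receptor, had log2 differences of -0.58 and -0.77, past the line in KD2 only.

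Of 10 genes that restrain the receptors 0 were higher in both knockdowns and 1 was lower, where 6.35% and 8.05% of all genes were. The lower gene was LRIG2, a membrane protein of the LRIG family. By its brightest probe LRIG2 had an intensity of 313 in KD1, 338 in KD2 and 549 in NC, 1.86-fold and 1.66-fold lower. Its 4 kept probes disagreed. Another of similar brightness had 415, 368 and 316. A dimmer probe had log2 differences of -0.80 and -0.66, and the dimmest had 0.07 and -0.15. The direction for LRIG2 is thus uncertain. LRIG3 passed in KD1 only, at 1.60-fold and 1.39-fold.

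Of the lists read here, the largest differences were in some of the immediate-early genes, which switch on within minutes of a growth factor signal. Of 20 genes that respond to ERK or feed back on it 6 were higher in both knockdowns and 1 was lower, beside 6.35% and 8.05% of all genes. Of those 6, EGR3 was kept only through the knockdown arrays, where it is high. The list was chosen with earlier results of these data known, so the count is only a description. The list's median was 0.19 in KD1 and 0.25 in KD2. The zinc finger factor EGR1 had an intensity of 20502 in KD1, 20377 in KD2 and 8196 in NC, 2.36-fold and 2.43-fold over NC. JUN, a subunit of AP-1, had 2774, 2291 and 748, with log2 differences of 1.81 and 1.58. FOS, its partner, was 2.08-fold and 2.19-fold over NC, EGR2 1.97-fold and 1.98-fold and IER2 1.63-fold and 1.52-fold. EGR3 had 105 in KD1, nearly the same in KD2 and 17.3 in NC, where it was not well above background, so it was at least 5.60-fold and at least 5.92-fold higher. PHLDA1 moved the other way, with 1998, 1976 and 4411, 2.34-fold and 2.28-fold lower. IER3, another immediate-early gene, stayed under the 1.5-fold line, with log2 differences of 0.23 and 0.24. Its dimmer probe had 0.33 in both knockdowns.

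The feedback genes of the same list, which are slower readouts of ERK, and its other members were mostly closer to NC. DUSP6, an ERK phosphatase, had log2 differences of -0.63 and -0.54, and DUSP5, another, had 0.77 and 0.53, so each passed in KD1 only. Among the Sprouty and SPRED inhibitors of the pathway, SPRY2, SPRY4 and SPRED2 had differences between 0.12 and 0.33, and SPRED1 had -0.28 in both. SPRY1 had 0.11 and -0.06 by its brighter probe and 0.29 and 0.37 by its dimmer probe. SPRED3 was well above background in NC only and was at least 1.33-fold lower in both. ETV4 had 0.15 and -0.35, ETV5 had -0.22 and -0.19, and FOSL1 had 0.11 and -0.22. DUSP4 had 0.01 and -0.02.

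**Figure D4:**
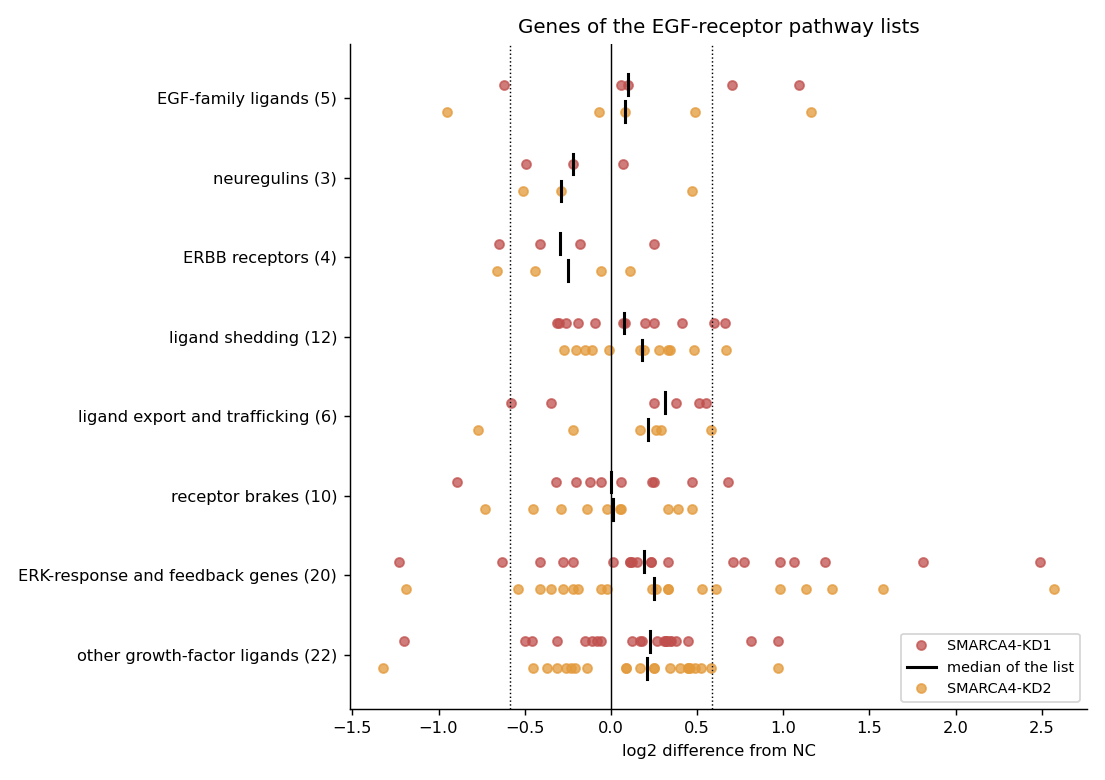
Log2 difference from NC (horizontal axis) of each gene kept in 8 lists of the EGF-receptor pathway and of other growth factors, for KD1 (red) and KD2 (orange), with the number of genes kept in brackets, a black bar at each list's median and dotted lines at 1.5-fold. The ligands spread from -0.62 to 1.09 in KD1 and from -0.95 to 1.16 in KD2, and the values beyond 1.5 belong to EGR3 and JUN.

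Growth factors outside the EGF family were set beside the ligands. Of 30 such genes 22 were kept, 1 was higher in both knockdowns and 1 was lower, and the medians were 0.22 and 0.21. These counts are about the shares of all genes, 6.35% and 8.05%, and the lower gene was kept only through the NC array. FGF2, a fibroblast growth factor without a classical signal peptide, had an intensity of 158 in KD1, 153 in KD2 and 76.0 in NC and was 1.96-fold over NC in both. Its dimmer probe had log2 differences of 0.51 and 0.71. FGF18 had 18.3, 13.5 and 39.6 and was well above background in NC only. It was 2.29-fold lower in KD1, with a spot error of 0.39 on the log2 scale, and at least 2.49-fold lower in KD2. TGFB1 passed in KD1 only, with 1.75-fold and 1.37-fold over NC. Of the 8 epithelial markers kept 1 was higher in both knockdowns and 0 were lower, where 6.35% and 8.05% of all genes were. The higher gene, KRT20, a keratin of mature colon cells, had 40.2, 50.8 and 17.5. It was not well above background in NC, so it was at least 2.15-fold and at least 2.81-fold higher. KRT20 was kept only through the knockdown arrays, where it is high. CDX1 had log2 differences of -0.16 and 0.12, CDX2 had -0.07 and -0.01, KRT19 had -0.02 and 0.07 and CDH1 had -0.18 and -0.23. The part of KRT20 in the ligand values was not tested.

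**Figure D5:**
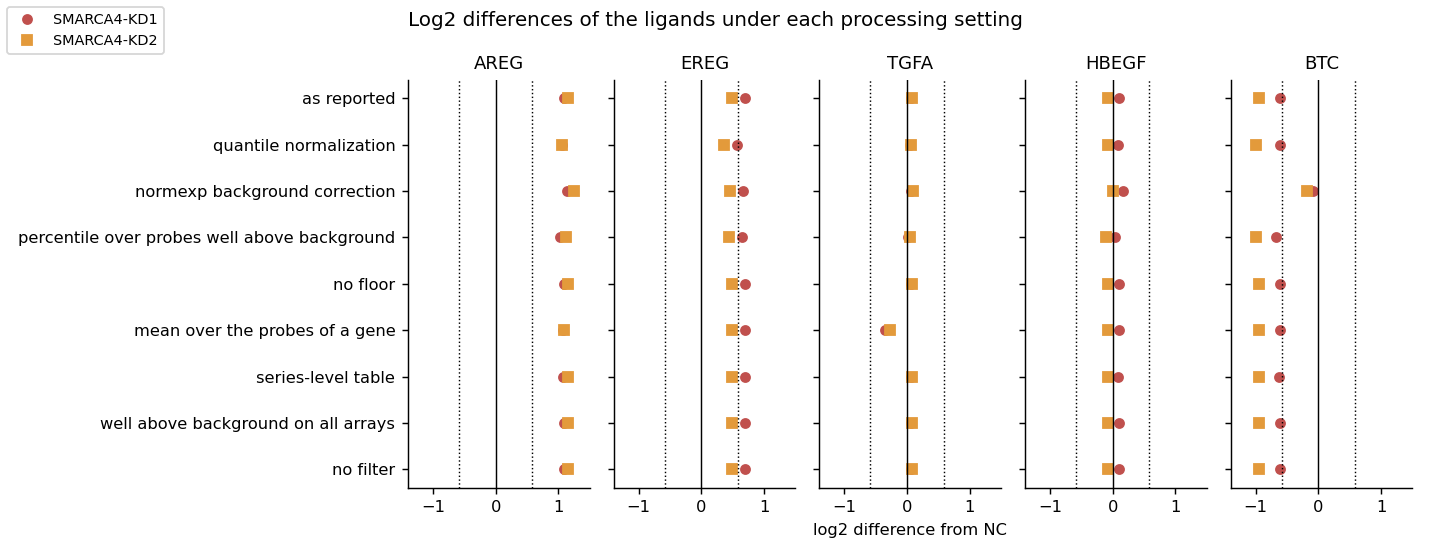
Log2 difference from NC (horizontal axis) of the 5 ligands kept, under the values as reported and under 8 other processing settings (rows), for KD1 (circles) and KD2 (squares), with dotted lines at 1.5-fold. AREG stays beyond the upper line in every row, BTC returns to between the lines under normexp background correction, and TGFA falls to -0.35 and -0.28 where its probes are averaged.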

How the data were processed

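RNA of 3 HCT116 cultures was measured on 1-colour Agilent arrays. The authors deposited scanner files with the intensity of each spot, extracted with Agilent Feature Extraction 10.7.1.1 per the submitters' processing notes, background-corrected and not normalized between arrays, and a series-level table of the same intensities. The deposited flags (outlier, saturated, well above background) were used as given. Outlier spots were left out, repeated spots were averaged, and from the log2 intensity the 75th percentile of the array (control spots excluded) was subtracted. Where a spot was not well above background, its value was raised to the lowest one that was, if it lay under it. Folds against a raised value are limits. A probe had to be well above background on 1 array or more, which left 22620 genes, each read by its brightest probe. The error of a log2 difference combines the software's errors of both spots.

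The members, the lists and the rule for named genes were chosen with earlier results of these data known. Named were all ligands with every probe, SMARCA4, the receptors, list members at least 1.5-fold apart from NC in the same direction in both knockdowns, AREG neighbours well above background and the 3 most similar genes per ligand. Other list members were named after their values were seen. Promoters came from a RefSeq table (GRCh38.p14). Probe names and positions are those of the array files (hg19). With 1 array per group no test was run. The steps were tested on simulated data. Alternatives were quantile normalization, normexp (limma 3.58.1, R 4.3.3, offset 50), a percentile taken only over probes detected on all 3 arrays, no floor, the mean over probes, the series-level table, other filters and a 2-fold threshold. Python 3.11.15, numpy 2.4.6, pandas 2.3.3 and matplotlib 3.10.9 were used. The siRNA sequences are not reported here.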

Additional observations from a re-analysis of the deposited data

Results flagged for a closer look

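HBEGF was the only ligand kept whose knockdown arrays lay on opposite sides of NC, with a log2 difference of 0.10 for SMARCA4-KD1 but -0.07 for SMARCA4-KD2. The knockdowns differed by 0.17, which is within the spot error of 0.21 and below the SD of 0.21 over 2127 genes of like brightness. The difference was not tested, since each group had 1 array.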

How the results depend on the processing

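AREG was at least 1.5-fold higher in both knockdowns under all 8 other settings of the values, with log2 differences between 1.03 and 1.14 in SMARCA4-KD1 and between 1.05 and 1.25 in SMARCA4-KD2, and it passed a 2-fold threshold in both. The floor and the filters could not move AREG, which was well above background on all arrays. The series-level table holds the same intensities, so it could hardly move AREG either. The number of ligands higher in both was 1 throughout. The number lower in both was 1 except that it was 0 with normexp background correction and 0 at a 2-fold threshold. The normexp offset of 50 is larger than the processed intensity of BTC on any array, and BTC then had -0.08 and -0.19. TGFA had -0.35 and -0.28 with the mean over its probes. EREG lay between 0.56 and 0.70 in SMARCA4-KD1 and between 0.36 and 0.49 in SMARCA4-KD2, and fell under 1.5-fold in SMARCA4-KD1 with quantile normalization. The median of the ligands lay between 0.04 and 0.16 in SMARCA4-KD1 and between -0.07 and 0.09 in SMARCA4-KD2. Without a filter the median of all genes was -0.15 in both knockdowns. That is the value of genes raised to the floor on NC and on the knockdown array, so it describes the floor and not expression. The slide or scan date could not be fitted as a block, because NC shared its combination of them with no other array. No array could be left out, because each group had 1. No paired analysis was possible because each group had a single array. Precision is limited by the number of arrays, and for BTC, EGF, EPGN and ERBB4 also by signal close to background.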
